A study of Homo sapiens with 42 samples.

Results

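The MAX network is a set of basic helix-loop-helix leucine zipper transcription factors that share 1 partner, MAX. Its 8 genes studied here were MYC, the activator; MAX itself; MNT and MGA, large repressors; and MXD1, MXD3, MXD4 and MXI1, the small repressors of the MXD family. They were taken from a gene-level count table by exact match of the gene name, each gene had 1 row, and together they made up 8 of 57353 gene names. All 8 passed the filter on low counts, which left 12939 genes for testing.

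MYC cannot bind DNA by itself. It pairs with MAX, and the pair binds the E-box, CACGTG, and recruits coactivators to genes for ribosome production, nucleotide synthesis and metabolism. The MXD proteins, MNT and MGA pair with the same MAX and bind the same E-box, where the MXD proteins and MNT bring in SIN3 and histone deacetylases, so that MYC and its antagonists compete for MAX and for sites. MYC messenger RNA and protein both turn over fast, and in acute myeloid leukemia with an internal tandem duplication in FLT3 (FLT3-ITD) the gene lies downstream of the mutant kinase. MXD1 is known as a gene that is induced when myeloid cells differentiate.

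The cells were MOLM-13, a human FLT3-ITD acute myeloid leukemia line labelled as wild type, so that the mutant receptor was present in every group, controls included. Cultures were kept for 12 h in RPMI with serum or in hBMSC-CM, a medium conditioned by HS-5, a stromal cell line from human marrow. In RPMI they received the vehicle DMSO, 3 nM quizartinib (AC220, a FLT3 inhibitor), or the combo, in which 10 nM everolimus, an inhibitor of mTORC1, was added to quizartinib. In hBMSC-CM the same vehicle, quizartinib and combo were given, and in addition 10 nM everolimus by itself. Each of the 7 conditions had 3 cultures, and from each of the 21 cultures total RNA (input) and RNA from heavy polysomes, that is from transcripts carrying many ribosomes, were sequenced separately. One cell line stands for the disease here, and the medium holds the secreted products of stromal cells without the cells, so that neither contact with stroma nor differences between patients were part of the comparison.

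Input libraries held 19439370 to 37161265 counts and heavy polysome libraries 21459383 to 38786394. Of 10 myeloid leukemia markers, 9 had counts in all 21 input libraries and ANPEP had counts in 6, and their summed level ranged from 1925 to 2059 CPM (counts scaled to library size) in RPMI with vehicle and from 3245 to 3629 CPM in hBMSC-CM with quizartinib. Of 10 stromal markers COL3A1, THY1, LUM and POSTN were at 0 in every input library, while the sum over the list was 2.61 to 7.51 CPM in RPMI with vehicle, 14.1 to 46.9 with quizartinib, 2.99 to 8.44 in hBMSC-CM with vehicle and 12.1 to 30.5 with quizartinib there. In single libraries COL1A1 reached 38.8 CPM, TAGLN reached 6.94 CPM, and the other listed genes stayed at or below 2.00 CPM. The sum was higher with quizartinib in both media, and its part in the results was not tested. The 3 hBMSC-CM everolimus cultures stood apart in how little they differed from each other: the median gene had a standard deviation of 0.0715 log2 units over their input libraries and 0.108 over their polysome libraries, against 0.168 to 0.267 and 0.289 to 0.413 in the other 6 conditions. Tests that involve them borrowed the wider spread of the other groups. The labels list them as 3 replicates and do not say whether they were grown apart, so that tests with this group may rest on fewer than 3 independent cultures. The labels do not say whether cultures of a condition were grown on separate days. In the main fit the spread of a gene was pooled over input and polysome libraries of all 14 groups, without a block. The p-values for input therefore also carry the wider spread of polysome libraries, and they speak for these cultures only.

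The promoters of MXD1, MXD3, MXD4 and MNT are shown because these are the members besides MYC that were called in a comparison of input. They run from 250 bases before to 50 bases after the RefSeq start site of the first window listed for each gene, on GRCh38.p14, 5′ to 3′ in the direction of transcription, with the E-box CACGTG in capitals.
MXD1 (chr2:69914859-69915158, plus strand): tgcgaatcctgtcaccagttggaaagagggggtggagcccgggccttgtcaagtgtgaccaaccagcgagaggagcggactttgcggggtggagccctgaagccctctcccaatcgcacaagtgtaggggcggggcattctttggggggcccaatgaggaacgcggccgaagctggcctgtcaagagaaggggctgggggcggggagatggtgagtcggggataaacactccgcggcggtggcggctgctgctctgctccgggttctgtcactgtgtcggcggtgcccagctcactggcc
MXD3 (chr5:177312703-177313002, minus strand): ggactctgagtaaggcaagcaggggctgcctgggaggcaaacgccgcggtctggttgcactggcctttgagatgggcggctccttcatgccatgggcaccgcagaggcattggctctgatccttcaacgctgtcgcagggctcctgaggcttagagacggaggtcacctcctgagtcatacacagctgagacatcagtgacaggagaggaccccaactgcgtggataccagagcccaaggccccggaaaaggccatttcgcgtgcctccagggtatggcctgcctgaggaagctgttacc
MXD4 (chr4:2262060-2262359, minus strand): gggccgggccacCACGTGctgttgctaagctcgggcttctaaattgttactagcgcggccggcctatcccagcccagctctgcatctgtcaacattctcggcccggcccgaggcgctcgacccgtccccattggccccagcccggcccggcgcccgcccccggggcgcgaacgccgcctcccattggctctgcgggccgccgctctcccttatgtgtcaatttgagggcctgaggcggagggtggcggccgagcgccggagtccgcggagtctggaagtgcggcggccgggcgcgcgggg
MNT (chr17:2401011-2401310, minus strand): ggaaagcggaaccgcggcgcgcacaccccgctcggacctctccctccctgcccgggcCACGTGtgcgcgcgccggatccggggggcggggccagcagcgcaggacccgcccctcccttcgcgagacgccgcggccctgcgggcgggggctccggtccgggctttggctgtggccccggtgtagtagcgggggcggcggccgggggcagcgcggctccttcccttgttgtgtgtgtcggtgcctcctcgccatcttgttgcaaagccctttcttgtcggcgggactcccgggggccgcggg
MXD4 had an E-box that starts at -238 from its start site, and MNT had one at -193, whereas the windows of MXD1 and MXD3 held none. CACGTG, which reads the same on both strands, was in 2 of 12 windows of the 7 members that had a window, and in 7.26% of all 35116 windows. GTAAACA, the core that FOXO factors bind, was sought on both strands and was in 1 member, MXI1, and in 3.42% of all windows. TTCNNNGAA, the STAT core, was in no member window and in 7.66% of all windows. A match describes these letters only and says nothing of binding in these cells.

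MYC fell steeply under quizartinib in RPMI and did not pass the test in hBMSC-CM. MYC (ENSG00000136997, GRCh38, chr8:127735434-127742951, plus strand) had input levels of 577, 453 and 441 CPM in the 3 RPMI cultures with vehicle. With quizartinib the 3 RPMI cultures had 35.2, 36.5 and 56.3 CPM, and with the combo 29.0, 27.4 and 43.1 CPM. No treated RPMI culture came near a vehicle culture. MYC was 11.5-fold lower with quizartinib than with vehicle in RPMI (log2 change -3.52 ± 0.32 SE, edgeR quasi-likelihood test, adjusted p = 1.85e-10, lower in 3 of 3 cultures) and 14.8-fold lower with the combo (log2 -3.88 ± 0.33, edgeR adjusted p = 2.59e-11). At 924 to 22844 counts in an input library, MYC was among the deeply sampled members, so that spread between cultures and not counting limited its precision. In bulk RNA, fewer cells with MYC and less MYC per cell cannot be told apart.

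In hBMSC-CM the vehicle cultures had 605, 422 and 399 CPM of MYC, and the quizartinib cultures 449, 322 and 362 CPM. Those ranges overlapped, and the log2 change was -0.33 (95% interval -0.93 to 0.26, edgeR adjusted p = 0.508), although MYC was lower in each of the 3 quizartinib cultures than in the vehicle culture of the same number. Everolimus alone left MYC at 495, 499 and 517 CPM. The combo cultures, at 274, 291 and 310 CPM, lay below all vehicle and all quizartinib cultures of that medium, with a log2 difference from vehicle of -0.71 ± 0.30 (edgeR adjusted p = 0.074). With the replicate number as a block that difference passed the test (log2 -0.71, edgeR adjusted p = 0.0147). Against quizartinib alone in hBMSC-CM, the combo differed in MYC by -0.37 (95% interval -0.97 to 0.23, edgeR adjusted p = 1).

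The medium itself made no measurable difference to MYC when no inhibitor was present (log2 -0.04 for hBMSC-CM against RPMI with vehicle, 95% interval -0.64 to 0.55). Under quizartinib MYC was 8.84-fold higher in hBMSC-CM than in RPMI (log2 3.14 ± 0.32, edgeR adjusted p = 7.63e-09), and under the combo 8.78-fold higher (log2 3.13 ± 0.32, edgeR adjusted p = 6.93e-09). The effect of quizartinib on MYC therefore differed between the media, and the test of that difference gave 3.19 ± 0.43 log2 units (edgeR adjusted p = 1.26e-05). MYC was the only member called in this comparison of effects without a block, where 1.96% of all genes were called. A replicate block within each fraction, that is a separate block for input and for polysome libraries, also called MXD1 and MXD4. The share of all genes called with that block is not given here. By group mean MYC stood lowest in RPMI with the combo (33.2 CPM) and then in RPMI with quizartinib (42.7), which overlapped and were not called as different (log2 -0.36, 95% interval -0.96 to 0.24, lower with the combo in 3 of 3 same-numbered cultures), followed by hBMSC-CM with the combo (292), quizartinib (377) and vehicle (476), RPMI with vehicle (490) and hBMSC-CM with everolimus (504). The cultures with everolimus overlapped those of both vehicle groups, the hBMSC-CM quizartinib cultures overlapped both vehicle groups, and the hBMSC-CM combo cultures overlapped no other group.

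**Figure D1:**
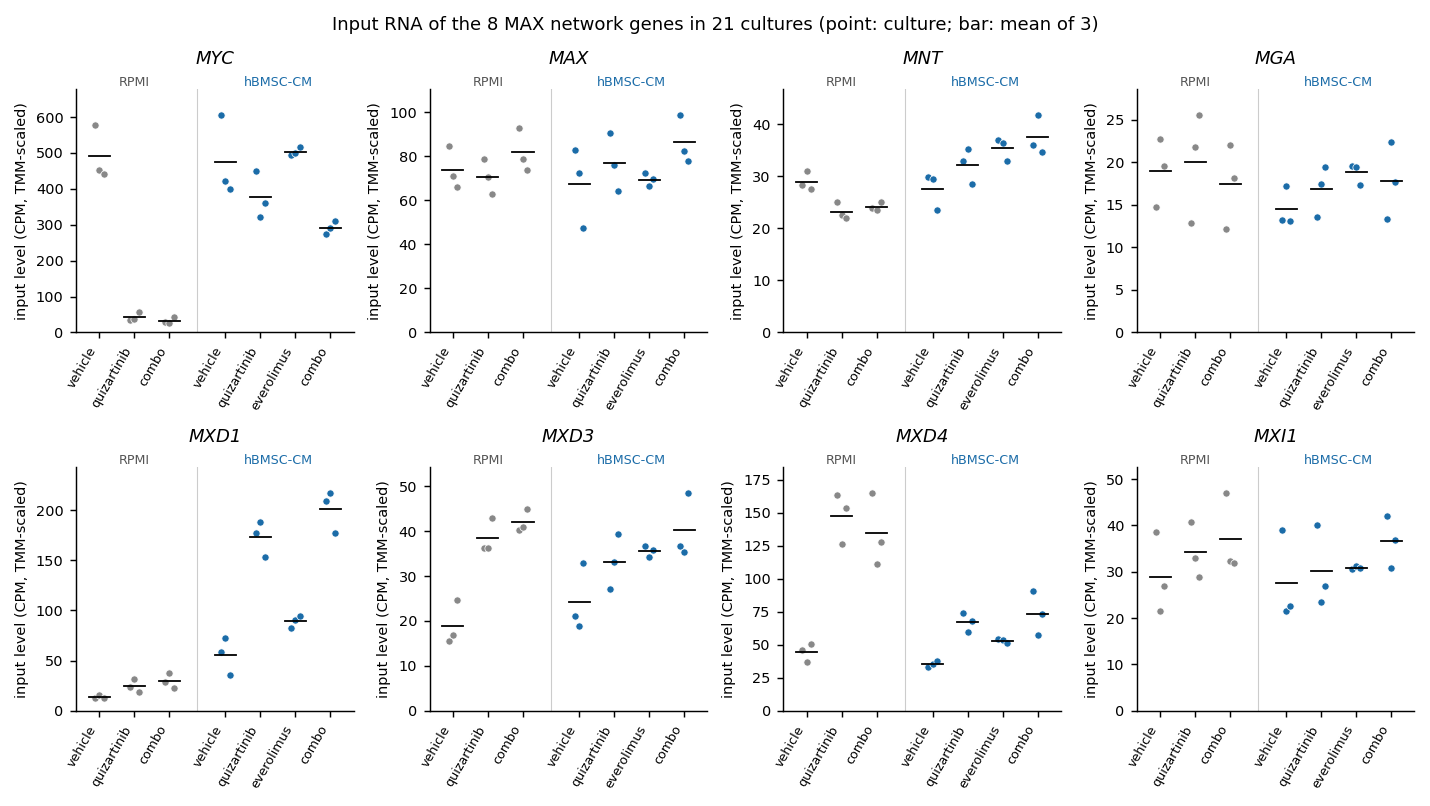
Input level of each member in CPM (linear axis from 0, TMM-scaled) for 7 conditions, grey in RPMI and blue in hBMSC-CM. Points are cultures and bars are means of 3. MYC drops in both inhibitor groups of RPMI, at 27.4 to 56.3 CPM, MXD1 climbs mainly in hBMSC-CM, and MAX stays between 47.4 and 98.6 CPM throughout.

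MAX, the obligate partner, passed no test in input. MAX (ENSG00000125952, chr14:65006174-65102695, minus strand) ranged from 47.4 to 98.6 CPM over the 21 input libraries, with group means from 67.5 CPM in hBMSC-CM with vehicle to 86.2 CPM with the combo there. It was called in none of the 12 comparisons of input by edgeR, by DESeq2 or by limma voom, and its unadjusted p was under 0.05 in none by edgeR. With quizartinib it differed from vehicle by -0.06 log2 units in RPMI (95% interval -0.66 to 0.54) and by 0.19 in hBMSC-CM (-0.41 to 0.79). On the opposite strand, FNTB shares 13.1% of the exon bases of MAX at up to 514 counts in a library, and the strand setting of the counting is not given in the sources used here, so that reads of that stretch cannot be assigned.

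Of the MXD family, MXD1, MXD3 and MXD4 rose under quizartinib in RPMI, and MXD1 and MXD4 in hBMSC-CM. Under quizartinib in RPMI 4 of 8 members passed the test, MYC lower and MXD1, MXD3 and MXD4 higher, against 34.6% of all genes called (16.6% higher and 18% lower). The combo in RPMI called the same 4 genes in the same directions against vehicle, where 37.4% of all genes were called, and both comparisons used the same 3 vehicle cultures. In hBMSC-CM quizartinib called 2 members, MXD1 and MXD4, both higher, against a background of 12.3% (5.46% higher and 6.84% lower). The combo in that medium called 3 members, MXD1, MXD3 and MXD4, all higher, against a background of 26.5%.

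MXD1, the family member tied to myeloid maturation, was the one that differed between the media when no inhibitor was present. MXD1 (ENSG00000059728, chr2:69897688-69942945, plus strand) had 12.9, 15.6 and 13.0 CPM in RPMI with vehicle, and 58.4, 72.9 and 35.3 CPM in hBMSC-CM with vehicle. It was 4.01-fold higher in hBMSC-CM (log2 2.00 ± 0.27, edgeR adjusted p = 8.33e-06), the 1 member called between the media without inhibitor, where 1.51% of all genes were called. Quizartinib brought it to 23.5, 31.6 and 18.7 CPM in RPMI and to 177, 188 and 153 CPM in hBMSC-CM. All 3 inhibitor cultures lay above all 3 vehicle cultures in each medium, and the rise was 1.78-fold in RPMI (log2 0.83 ± 0.26, edgeR adjusted p = 0.013) and 3.12-fold in hBMSC-CM (log2 1.64 ± 0.26, edgeR adjusted p = 0.000101). The RPMI call was lost without quizartinib culture 2 (log2 0.61, edgeR adjusted p = 0.108) or without vehicle culture 3 (log2 0.79, edgeR adjusted p = 0.052). The size of the rise was not called as different between the media (difference 0.81 log2 units, 95% interval 0.06 to 1.56, edgeR adjusted p = 0.419) without a block, and it was called with the block within each fraction (log2 0.87, edgeR adjusted p = 0.0314).

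Medium and inhibitor together set MXD1 over a wide range, from a group mean of 13.8 CPM to 201 CPM. Under quizartinib it was 7.03-fold higher in hBMSC-CM than in RPMI (log2 2.81 ± 0.28, edgeR adjusted p = 4.57e-09), where 8.16% of all genes were called. The combo cultures of hBMSC-CM held 209, 217 and 177 CPM and the everolimus cultures 82.0, 90.8 and 94.4 CPM. Everolimus alone did not pass the test against vehicle (log2 0.68, 95% interval 0.15 to 1.21, edgeR adjusted p = 0.359), although its 3 cultures lay above the 3 vehicle cultures. The combo was 2.25-fold above everolimus alone (log2 1.17 ± 0.26, edgeR adjusted p = 0.00236), the single member called there by edgeR against 11.1% of all genes, with the doubt about the independence of the everolimus cultures given above.

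MXD4, usually expressed in cells that differentiate, rose under quizartinib in both media, and under quizartinib it was lower in hBMSC-CM than in RPMI. MXD4 (ENSG00000123933, chr4:2247432-2262109, minus strand) had 46.1, 37.0 and 50.2 CPM with vehicle in RPMI, then 163, 126 and 153 CPM with quizartinib. The rise was 3.32-fold (log2 1.73 ± 0.29, edgeR adjusted p = 1.53e-05). In hBMSC-CM it went from 33.1, 35.1 and 37.8 CPM with vehicle to 73.9, 59.3 and 67.7 CPM with quizartinib, with no overlap. That rise of 0.92 ± 0.29 log2 units (edgeR adjusted p = 0.0313) no longer passed the test when any 1 of 5 of the 6 cultures was left out, with edgeR adjusted p between 0.0543 and 0.0797 and log2 changes between 0.85 and 0.97. Under quizartinib MXD4 was 2.20-fold lower in hBMSC-CM than in RPMI (log2 -1.14 ± 0.29, edgeR adjusted p = 0.00806). Under the combo the same difference was -0.87 (edgeR adjusted p = 0.0737), and it passed with the replicate number as a block (log2 -0.88, edgeR adjusted p = 0.00207) and with DESeq2 (0.0357). The difference of the quizartinib effects between the media, -0.81 log2 units, was not called (95% interval -1.63 to 0.01, edgeR adjusted p = 0.51), and was with the block within each fraction (log2 -0.82, edgeR adjusted p = 0.0234).

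MXD3, a member that is usually expressed in cycling cells, had 15.5, 16.9 and 24.6 CPM in RPMI with vehicle and 36.3, 36.3 and 42.9 CPM with quizartinib (MXD3, ENSG00000213347, chr5:177301461-177312757, minus strand). It rose 2.03-fold (log2 1.02 ± 0.22, edgeR adjusted p = 0.000339) with no overlap. In hBMSC-CM the vehicle cultures had 21.1, 18.9 and 32.8 CPM and the quizartinib cultures 27.2, 33.1 and 39.4 CPM. These overlapped, and the log2 difference was 0.45 (95% interval 0.01 to 0.89, edgeR adjusted p = 0.174, and 0.0189 with the block within each fraction), while the combo, at 36.7, 35.3 and 48.4 CPM, passed (log2 0.73 ± 0.22, edgeR adjusted p = 0.0113). The combo call was lost without combo culture 3, vehicle culture 1 or vehicle culture 2, with edgeR adjusted p between 0.0617 and 0.0735. PRELID1, on the opposite strand, shares 24.2% of the exon bases of MXD3 at up to 11608 counts in a library, and RAB24, on the same strand, shares 19.5%. In input, PRELID1 fell under quizartinib in RPMI (log2 -1.68 ± 0.22, edgeR adjusted p = 2.15e-07), and RAB24 differed by -0.30 (edgeR adjusted p = 0.517). The part of reads from these 2 genes in the MXD3 values, in input or in polysomes, was not tested.

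MXI1, MNT and MGA complete the antagonists. MXI1 (ENSG00000119950, chr10:110207605-110287365, plus strand) ranged from 21.5 to 46.9 CPM in input and was called in no comparison of input, its largest difference being 0.40 log2 units for the combo against vehicle in hBMSC-CM (95% interval -0.21 to 1.02). MGA (ENSG00000174197, chr15:41621134-41773081, plus strand), the scaffold of the PRC1.6 repressor complex, ranged from 12.2 to 25.6 CPM and was called in none either. Intervals for these 2 genes reached from -1.06 to 1.08 log2 units over the 12 comparisons.

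MNT, the broadly expressed antagonist, was higher in hBMSC-CM than in RPMI under the combo. MNT (ENSG00000070444, chr17:2384073-2401104, minus strand) had 25.0, 22.5 and 21.9 CPM in RPMI with quizartinib and 32.9, 35.2 and 28.5 CPM in hBMSC-CM with quizartinib. These did not overlap, yet the difference of 0.48 ± 0.18 log2 units was not called by edgeR (adjusted p = 0.0981), while DESeq2 (0.0492) and edgeR with the block within each fraction (0.0151) called it. With the combo the RPMI cultures had 23.9, 23.5 and 25.0 CPM and the hBMSC-CM cultures 36.1, 41.7 and 34.7 CPM, and MNT was 1.56-fold higher in hBMSC-CM (log2 0.64 ± 0.18, edgeR adjusted p = 0.0212). With it, MYC and MXD1 were the 3 members called there, all higher, against 5.36% of all genes. The MNT call was lost without hBMSC-CM combo culture 2 (edgeR adjusted p = 0.0753), without RPMI combo culture 1 (0.0754) or without RPMI combo culture 2 (0.0886), and with no filter on low counts (0.322). Against vehicle in hBMSC-CM, the combo differed in MNT by 0.44 log2 units, which edgeR did not call (adjusted p = 0.0585). It passed with the replicate block (log2 0.45, edgeR adjusted p = 0.0316), with DESeq2 (0.0207) and with limma voom (0.0485).

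Adding everolimus to quizartinib called no member in either medium by edgeR, DESeq2 or limma voom, and no member had an unadjusted p under 0.05 by edgeR. In RPMI 0.00773% of all genes were called by that comparison and in hBMSC-CM 0.24%. The intervals of MYC reached from -0.96 to 0.24 in RPMI and from -0.97 to 0.23 in hBMSC-CM, so that a further fall of MYC of nearly 1 log2 unit could not be told from none. Everolimus alone against vehicle in hBMSC-CM also called no member by these 3 tools (0.41% of all genes by edgeR), while 4 members, MNT, MXD1, MXD3 and MXD4, had an unadjusted p under 0.05 by edgeR, as did 8.68% of all genes.

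**Figure D2:**
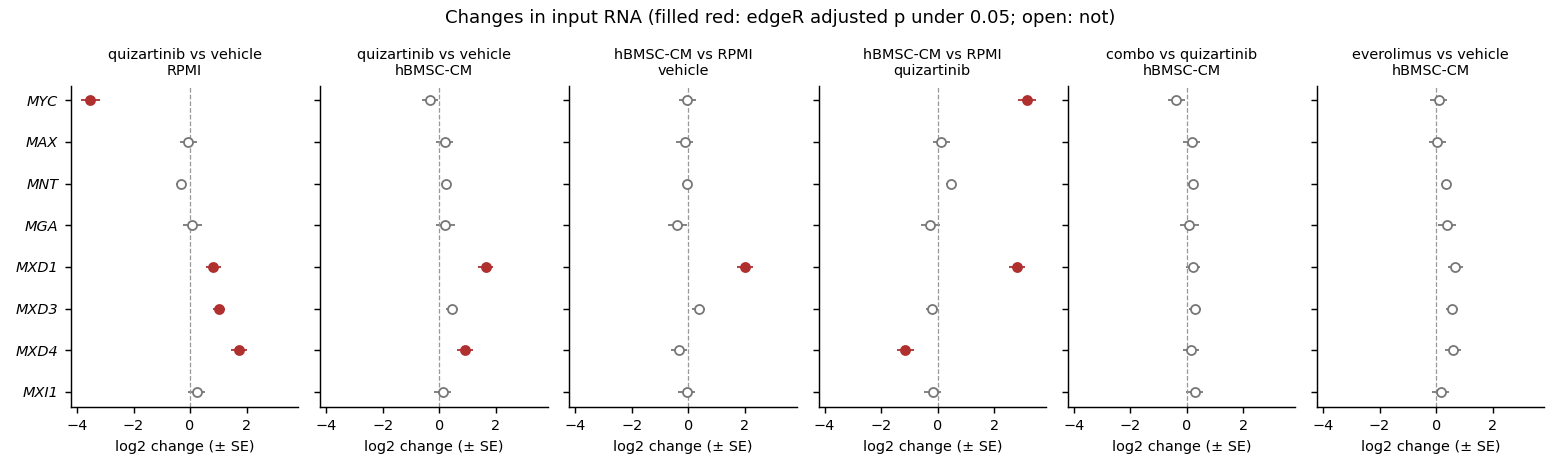
Log2 change in input RNA (x axis, points with bars of 1 SE) for 8 members in 6 comparisons named above the panels. Filled red points passed edgeR's adjusted threshold of 0.05 and open points did not. MYC at -3.52 in RPMI and 3.14 between the media under quizartinib are the outermost values.

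Set beside each other per length, the members show how the pool of MAX partners shifted. Levels were divided by the kilobases of exon of each gene, giving CPM per kb, and the share of MYC was taken over MYC, the 4 MXD family genes, MNT and MGA. In RPMI with vehicle MYC stood first with 80.3 CPM per kb, ahead of MAX at 11.8, and its share was 80.7, 79.0 and 75.7% in the 3 cultures. With quizartinib MXD4 stood first with 21.5 CPM per kb, ahead of MAX at 11.3, MXD3 at 8.1 and MYC at 7.0, and the share of MYC was 11.2, 12.9 and 17.7%. The combo in RPMI gave a mean share of 11.3% ± 3.1 (SD, n = 3).

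In hBMSC-CM MYC remained first in every condition. Its share was 73.4% ± 3.4 (SD, n = 3) with vehicle, 53.3% ± 3.8 with quizartinib, 67.6% ± 0.41 with everolimus and 43.4% ± 2.7 with the combo. The highest share in the quizartinib cultures, 56.9%, lay below the lowest in the vehicle cultures, 70.8%. The second place went from MAX with vehicle (10.8 CPM per kb, against 8.7 for MXD1) to MXD1 with quizartinib (27.2 CPM per kb) and with the combo (31.6). The partners other than MYC summed to 27.6 CPM per kb with vehicle and 53.6 with quizartinib, so the lower share came with higher antagonists as well as with MYC itself at 77.9 and 61.8 CPM per kb. These shares are of RNA, were derived from the values above and carry no test.

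**Figure D3:**
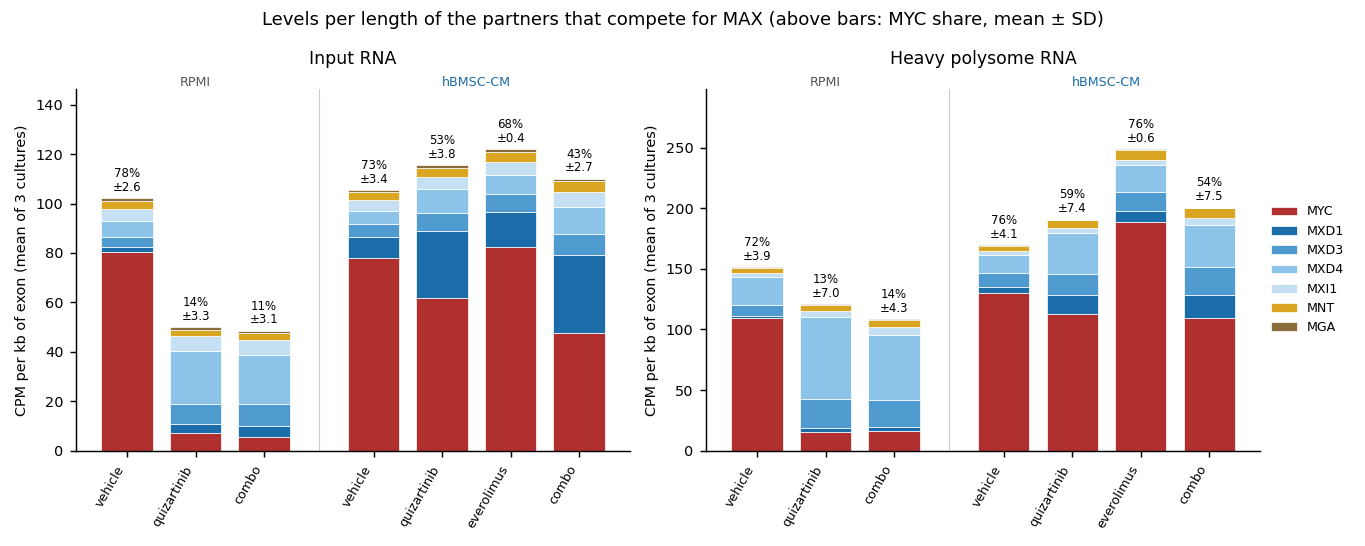
Mean level per length (y axis, CPM per kb of exon, from 0, 3 cultures) of the 7 genes that pair with MAX, stacked, in input and heavy polysome RNA for 7 conditions. The number above each bar is the share of MYC, mean ± SD. MYC fills most of the bar with vehicle, and 13.9% of it in input with quizartinib in RPMI.

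In heavy polysomes, some members lay above their input level and others below it. Polysome minus input is the log2 CPM in the polysome library of a culture less that in its input library. Both are scaled to their own totals with TMM factors, so it is a position relative to other transcripts and not an absolute load. Under scaling by library size alone the median of all genes was 0.28 to 0.55 log2 units lower, so the side of 0 depends on the scaling for values this close to it. MXD4 lay above 0 in all 21 cultures (0.87 to 2.27, median 1.50), as did MXD3 (0.55 to 1.98, median 1.28), MYC (0.20 to 1.80, median 1.08) and MNT (0.01 to 1.27, median 0.82). MXD1 lay below 0 in all 21 (-1.61 to -0.12, median -0.62), and MGA in 19 of 21 (median -0.79). MAX, from -0.66 to 0.79, and MXI1, from -0.82 to 0.49, fell on both sides. How many of all genes lay on the same side in all 21 cultures was not counted, so these counts do not set the members apart.

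Tested within each condition, polysome against input called 4 or 5 of 8 members, close to the share of all genes called, 57.9 to 65.4%. The count by itself therefore does not set the network apart. In RPMI the share of all genes was 65.4% with vehicle, 57.9% with quizartinib and 59.3% with the combo. In hBMSC-CM it was 63.6% with vehicle, 58.7% with quizartinib, 58.6% with everolimus and 63% with the combo. MXD4 was higher in polysomes in 7 of 7 conditions, by 1.47 to 1.81 log2 units, with edgeR adjusted p from 3.61e-06 to 6.73e-05. MXD3 was also higher in 7 of 7, by 1.06 to 1.58 log2 units. MYC and MNT were each called higher in 6 of 7, the exception being RPMI with vehicle (MYC log2 0.45, 95% interval -0.14 to 1.05, edgeR adjusted p = 0.175, and MNT log2 0.29, edgeR adjusted p = 0.144). With the block within each fraction MYC was called there too (log2 0.43, edgeR adjusted p = 0.0476).

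The weakest of these MYC calls depended on single cultures. In hBMSC-CM with vehicle the MYC call (log2 0.74 ± 0.29, edgeR adjusted p = 0.0291) was lost without culture 3 (log2 0.40, edgeR adjusted p = 0.335) or culture 2 (0.0561), and with quizartinib it was lost without culture 3 (log2 0.64, edgeR adjusted p = 0.129). With the combo there, MYC was called at 1.20 (edgeR adjusted p = 0.000781) and not without culture 3 (log2 0.81, edgeR adjusted p = 0.0533). MNT in hBMSC-CM with vehicle, at 0.45 (edgeR adjusted p = 0.0252), was lost without culture 3 (log2 0.23, edgeR adjusted p = 0.359). Under scaling by library size alone, under which the median of all genes dropped by 0.28 to 0.55 log2 units in these comparisons, MYC in hBMSC-CM was not called with vehicle (log2 0.23) or quizartinib (log2 0.45), and MNT was not called with quizartinib in either medium (log2 0.41 in RPMI and 0.25 in hBMSC-CM) and turned to -0.07 in hBMSC-CM with vehicle. DESeq2 did call MNT in RPMI with vehicle (log2 0.43, adjusted p = 0.0189).

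MXD1 was called lower in polysomes in 4 of 7 conditions. Its log2 differences were -1.02 ± 0.27 in RPMI with vehicle (edgeR adjusted p = 0.00143) and, in hBMSC-CM, -0.83 with vehicle, -0.81 with quizartinib and -0.75 with the combo. In hBMSC-CM these calls were lost without vehicle culture 1 (edgeR adjusted p = 0.125), without quizartinib culture 1 (0.0834), and without combo culture 1 (0.058) or culture 2 (0.0828). In RPMI with the combo MXD1 stood at -0.46 and passed only with the block within each fraction, by library size alone or with a mean of at least 10 CPM (edgeR adjusted p = 0.131, against 0.0317, 0.0175 and 0.0257). With everolimus it stood at -0.58 (edgeR adjusted p = 0.0524, limma voom 0.0323). The hBMSC-CM quizartinib and combo cultures, whose MXD1 input ranged from 153 to 217 CPM, had polysome values of 82.4 to 134 CPM.

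MGA, the longest of the transcripts, was called lower in polysomes in RPMI with vehicle (log2 -1.06 ± 0.33, edgeR adjusted p = 0.00647, and 0.0593 without culture 3) and in hBMSC-CM with everolimus (log2 -1.46 ± 0.34, edgeR adjusted p = 0.000442). With the replicate number as a block MGA was also called in hBMSC-CM with vehicle (log2 -0.65, edgeR adjusted p = 0.0481), quizartinib (log2 -0.70, edgeR adjusted p = 0.0335) and the combo (log2 -0.74, edgeR adjusted p = 0.0235), where DESeq2 (0.0419) and limma voom (0.0394) called it without a block. MAX and MXI1 were called in no condition by edgeR, although MXI1 in RPMI with vehicle (log2 -0.51, edgeR adjusted p = 0.14) passed under library size alone (log2 -1.06, edgeR adjusted p = 0.00609) and with the block within each fraction (log2 -0.47, edgeR adjusted p = 0.0438), and no unadjusted p of MAX was under 0.05.

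**Figure D4:**
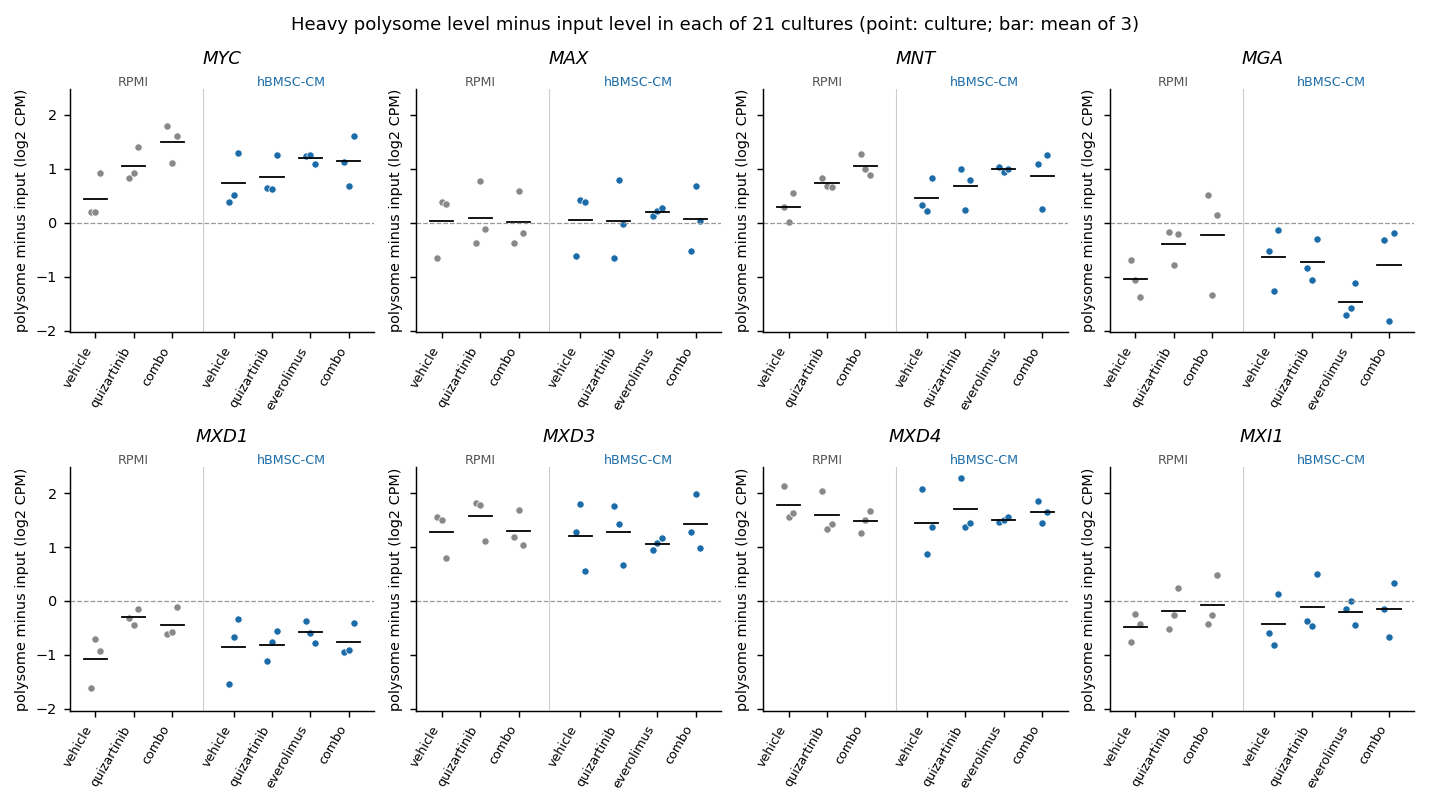
Polysome minus input in log2 CPM (y axis, dashed line at 0) for each member in 21 cultures of 7 conditions, grey in RPMI and blue in hBMSC-CM. Points are cultures and bars are means of 3. With TMM scaling, MXD3, MXD4, MYC and MNT stay above 0 in all 21, and MXD1 stays below.

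Without a block, and apart from scaling by library size alone, no condition was shown to change the polysome position of a member. In 12 of 12 comparisons of polysome minus input edgeR called 0 members, as did DESeq2 and limma voom, and 3 member values in all had an unadjusted p under 0.05 by edgeR, of which 2 were for the combo against vehicle in RPMI, where 19.0% of all genes had one, and 1 for everolimus against vehicle, where 4.43% had. Over all genes edgeR called 1.55% for quizartinib against vehicle in RPMI, 4.99% for the combo against vehicle in RPMI, 0.0232% for the combo against vehicle in hBMSC-CM, and 0% in the other 9 comparisons. For quizartinib against vehicle in RPMI the polysome minus input of MYC was 0.20, 0.20 and 0.91 with vehicle and 0.82, 0.92 and 1.40 with quizartinib, a difference of 0.67 log2 units that was not called (95% interval -0.17 to 1.52, edgeR adjusted p = 0.466).

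The combo in RPMI gave the widest shift. MYC there stood at 1.80, 1.10 and 1.61, above all vehicle cultures, and the difference was 1.10 ± 0.42 log2 units (edgeR adjusted p = 0.121). With the replicate number as a block it passed (log2 1.11, edgeR adjusted p = 0.0243). MNT went from 0.29, 0.01 and 0.55 to 1.27, 0.99 and 0.89, a difference of 0.77 ± 0.25 (edgeR adjusted p = 0.0639) that also passed with the block (log2 0.76, edgeR adjusted p = 0.0306). With a block per culture, which sets each polysome library against its own input, MYC passed (log2 1.07, edgeR adjusted p = 0.0487) and MNT did not (log2 0.77, edgeR adjusted p = 0.113). Under scaling by library size alone, without a block, MNT was called for the combo against vehicle in RPMI. The third value under an unadjusted 0.05 was MNT for everolimus against vehicle in hBMSC-CM (log2 0.55, edgeR adjusted p = 1).

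Because MYC fell in input by more than its polysome position shifted, its polysome level followed its input level. Polysome MYC was 663, 519 and 832 CPM in RPMI with vehicle and 62.4, 69.0 and 148 CPM with quizartinib. In hBMSC-CM with quizartinib it was 702, 496 and 867 CPM. Per length, MYC made up 72.4% ± 3.9 (SD, n = 3) of the MAX partners in RPMI polysomes with vehicle and 13.1% ± 7.0 with quizartinib, and 76.2% ± 4.1 and 58.7% ± 7.4 in hBMSC-CM. MXD4 held the first place in RPMI polysomes with quizartinib, at 67.9 CPM per kb against 15.3 for MYC.

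Genes that MYC is known to induce fell in both media, and by less in hBMSC-CM for some of them. Of 26 listed genes 25 were tested, EIF4A1 being under the filter at no more than 74 counts in a library. Under quizartinib in RPMI 23 of 25 were lower and 0 higher, against 18% lower and 16.6% higher of all genes. The median log2 change was -1.95, against 0.08 over all genes. In hBMSC-CM, where MYC itself was not called, 16 of 25 were lower and 0 higher, against 6.84% and 5.46% of all genes. The median there was -0.99, against 0.01 over all genes. The difference of the effects was called for 10 of 25, all of them less lowered in hBMSC-CM, against 1.96% of all genes called in either direction. Between the media under quizartinib 12 of 25 were higher in hBMSC-CM, against 8.16% of all genes called in either direction. With the combo in hBMSC-CM 21 of 25 were lower (median -1.34), against 26.5% of all genes called in either direction. In polysome minus input, 1 of 25 was higher and 1 lower for quizartinib in RPMI, where 1.55% of all genes were called, and 0 were called in hBMSC-CM by edgeR.

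Of the 3 genes of that list with the largest change, the effects of SRM and BOP1 were called as different between the media. NME1, a nucleoside diphosphate kinase, fell by 3.77 ± 0.43 log2 units in RPMI (edgeR adjusted p = 1.69e-08) and by 2.07 ± 0.40 in conditioned medium (0.000726). SRM, spermidine synthase, fell by 3.66 ± 0.25 in RPMI and by 1.64 ± 0.23 in hBMSC-CM, and the difference of these effects was 2.02 ± 0.32 (edgeR adjusted p = 0.000162). BOP1, a factor of ribosome assembly, fell by 3.31 ± 0.28 and by 1.27 ± 0.26, with a difference of 2.05 ± 0.37 (edgeR adjusted p = 0.000914). The difference for NME1, 1.71, was not called (edgeR adjusted p = 0.132).

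Genes that MYC is known to repress, 10 of 12 tested, gave 4 higher and 1 lower in RPMI, against 16.6% and 18% of all genes. Their median was 0.68, against 0.08 over all genes. In hBMSC-CM 0 were called by edgeR (median 0.40), against 5.46% higher and 6.84% lower of all genes. CCNG2, an atypical cyclin, rose by 2.39 ± 0.51 in RPMI, and GADD45B, a stress-response gene, by 1.40 ± 0.48 (edgeR adjusted p = 0.000316 and 0.0226). DUSP2, a phosphatase of MAP kinases, went the other way, at -2.77 ± 0.41 (edgeR adjusted p = 1.91e-06). Between the media under quizartinib DUSP2 was the 1 gene of this list called, higher in hBMSC-CM by 1.53 ± 0.40, where 8.16% of all genes were called.

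**Figure D5:**
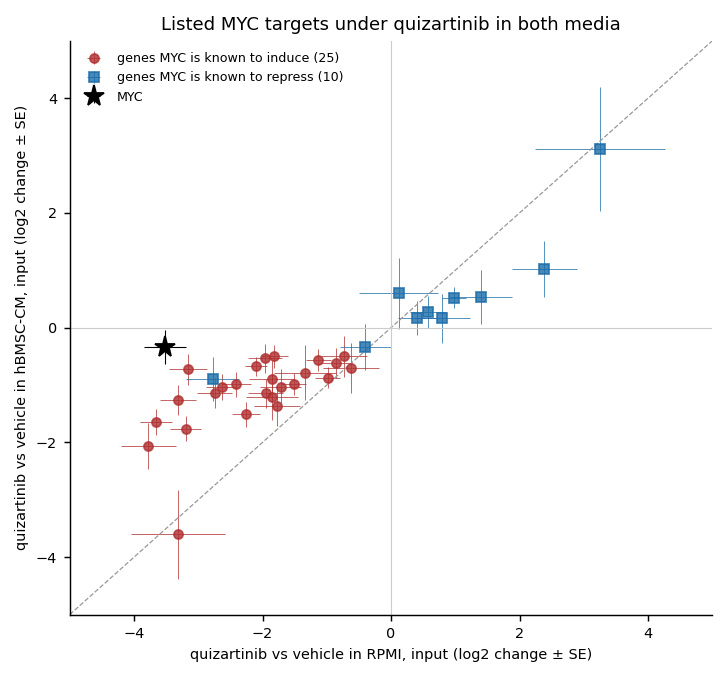
Log2 change ± SE in input under quizartinib against vehicle, in RPMI (x axis) and in hBMSC-CM (y axis), for 25 genes MYC is known to induce, 10 it is known to repress, and MYC (star). The dashed line marks equal change. The induced genes lie below 0 on both axes, and MYC lies at -3.52 on x and -0.33 on y.

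Of 13 listed cofactors of MYC, 6 were lower in RPMI and 5 in hBMSC-CM under quizartinib, where 18% and 6.84% of all genes were lower, and none was higher. RUVBL1, an ATPase that joins MYC in chromatin remodelling, fell by 2.13 ± 0.18 in RPMI and 1.21 ± 0.18 in hBMSC-CM, WDR5, which anchors MYC to chromatin, by 1.59 ± 0.20 and 0.66 ± 0.20, and the acetyltransferase KAT2A by 1.39 ± 0.26 and 1.10 ± 0.26. The difference of effects was called for RUVBL1 alone among the 13 (0.93 ± 0.25, edgeR adjusted p = 0.0392).

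Of 12 genes for MYC protein turnover, 1 was higher and 3 lower in RPMI, and 1 was higher and 1 lower in hBMSC-CM, against 16.6% higher and 18% lower of all genes in RPMI and 5.46% and 6.84% in hBMSC-CM. FBXO32, a ubiquitin ligase subunit, rose by 2.40 ± 0.23 in RPMI and 1.49 ± 0.23 in hBMSC-CM, and it rose with everolimus alone by 1.59 ± 0.23 (edgeR adjusted p = 0.000188). SKP2, another such subunit, fell by 1.63 ± 0.27 and 0.92 ± 0.26. USP36, a nucleolar deubiquitinase, fell by 1.88 ± 0.19 in RPMI and was at -0.51 ± 0.18 in hBMSC-CM (edgeR adjusted p = 0.0561), and the effects differed by 1.37 ± 0.25 (edgeR adjusted p = 0.00143).

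Of 11 genes of the SIN3 and histone deacetylase corepressors, 2 were higher and 2 lower in RPMI (16.6% and 18% of all genes) and 1 was lower in hBMSC-CM (6.84% of all genes), with medians of -0.03 and -0.08 against 0.08 and 0.01 over all genes. ARID4B rose by 0.98 ± 0.30 in RPMI, and RBBP7 fell by 0.78 ± 0.15 there and by 0.61 ± 0.15 in hBMSC-CM. HDAC2 fell by 0.74 ± 0.30 in RPMI, close to the threshold (edgeR adjusted p = 0.0475). Of 10 genes of the PRC1.6 complex of MGA, 4 were lower in RPMI and 1 in hBMSC-CM, against 18% and 6.84% of all genes. Their medians were -0.28 and -0.32. TFDP1 was at -1.70 ± 0.50, CBX3 at -1.04 ± 0.22 and L3MBTL2 at -0.87 ± 0.23 in RPMI.

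The parallel MLX arm of the network, which senses glucose products, and the MYC paralogs were listed in full. MLXIP, which encodes MondoA, rose by 0.68 ± 0.18 in RPMI and 0.70 ± 0.18 in hBMSC-CM (edgeR adjusted p = 0.00368 and 0.00997), while its partner MLX was at -0.22 ± 0.39 and -0.02 ± 0.39. MLXIPL was called higher in RPMI at a mean of 1.00 CPM with overlapping groups (log2 2.40 ± 0.84, edgeR adjusted p = 0.0241) and was at 1.03 ± 0.73 in hBMSC-CM. The MondoA target TXNIP rose by 1.76 ± 0.47 in RPMI (edgeR adjusted p = 0.00309) and was at 1.00 ± 0.46 in hBMSC-CM (0.149), and ARRDC4 was at 0.87 ± 0.48 and 0.83 ± 0.48. MYCL fell by 1.32 ± 0.28 in RPMI (edgeR adjusted p = 0.000251) and was at -0.36 ± 0.27 in hBMSC-CM, and MYCN had 0 counts in all libraries. PVT1, the long noncoding RNA next to MYC, was at -0.98 ± 0.56 in RPMI and -0.57 ± 0.56 in hBMSC-CM (edgeR adjusted p = 0.184 and 0.565), and CASC11 and CASC8 had at most 14 and 6 counts in a library.

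Likeness of pattern was measured as Pearson's r of log2 CPM over the 21 input libraries among the 8431 other tested genes whose average reached 10 CPM, as a description, since the libraries fall into 7 conditions that share media and inhibitors. The genes most like MYC were SIRPB1 (r = 0.986), CLIC1 (0.973), XBP1 (0.968), ETV5 (0.966) and ECE1 (0.964). At the other end stood DBP (-0.953), PNRC2 (-0.944), AXIN1 (-0.940), RABGAP1L (-0.937) and ITM2C (-0.935). MXD1 was most like PPARD (0.988), LITAF (0.987) and SBNO2 (0.978), MXD4 most like PDK2 (0.965), NCKAP5L (0.960) and AXIN1 (0.955), and MXD3 most like TXNIP (0.955), UBXN6 (0.940) and ORAI3 (0.938). For MAX the highest were ABHD13 (0.926), PIKFYVE (0.918) and UHRF1BP1L (0.904), for MNT TLR2 (0.926), RNF44 (0.899) and FKBP5 (0.895), for MXI1 GDE1 (0.933), DYM (0.902) and HMMR (0.885), and for MGA SFMBT2 (0.829), METTL14 (0.821) and ZNF84 (0.818). Between members, MYC and MXD4 ran most opposed (r = -0.90), MNT and MXD1 ran most together (0.72), and MAX and MXI1 came next (0.72).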

How the data were processed

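The authors treated MOLM-13 cells for 12 h, added cycloheximide, separated lysates on sucrose gradients, pooled heavy polysome fractions, and sequenced poly(A)-selected libraries of input and polysome RNA. They trimmed reads with BBDuk, aligned them with STAR 2.6.0a to hg38 with Ensembl annotation and deposited raw counts per gene, and they tested with limma. The strand setting of the counting is not given in the sources used here. Strand therefore cannot separate overlapping genes.

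From the deposited counts, rows that share a gene name were summed (58884 rows, of which 25133 had no count, gave 57353 names). The filter of the authors, an average of 1 count and of 1 CPM or more, left 12939 genes with 99.8% of counts. The main test was edgeR 4.0.16 (R 4.3.3), with TMM factors, robust quasi-likelihood fits of 14 group means over all 42 libraries, and Benjamini-Hochberg adjustment over all genes at a threshold of 0.05. Log2 changes carry the SE implied by the F statistic, and 95% intervals use the t distribution with the degrees of freedom of the fit. Polysome minus input comparisons are differences of differences in that fit. The common biological coefficient of variation was 0.279. CPM values are TMM-scaled, and log2 CPM used a prior count of 2. The smallest mean chi-square per gene between libraries of a group was 5.02, so no library was a copy of another in its group. Libraries of different groups were not compared in this way. The fits were tested on simulated counts with known changes, drawn independently for each library. Those counts held neither a likeness between cultures of the same number nor the narrow spread of the everolimus group. They do not test the fits under these features.

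Alternatives were limma 3.58.1 with voom, DESeq2 1.42.0, RLE factors, library size alone, no filter, a mean of at least 10 CPM (8522 genes), the replicate number (or the culture) as a block, a fit to the compared groups alone, and each culture left out. Same-numbered cultures of different conditions deviated together from the means of their groups. In every comparison of input without the everolimus group, the pairs of deviations correlated at over 0.1 (0.261 to 0.604). So did those of polysome libraries, except for RPMI combo against vehicle (lowest 0.081). The labels give the numbers without saying what they mark. Input and polysome libraries of a culture also deviated together, except for RPMI combo culture 1 and the 3 everolimus cultures. Pairs with the hBMSC-CM everolimus cultures did not (-0.046 to 0.011 for input). Blocked values are therefore given beside the members whose call a block changes in the other comparisons.

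Exon lengths, gene positions and overlaps came from GENCODE v44 on GRCh38, the assembly of the counts in another annotation release, and promoters from RefSeq on GRCh38.p14, where 7 of 8 members had windows. All 8 members are named throughout, and from each other gene list at most the 3 called genes with the largest input change in RPMI and a mean of at least 10 CPM are named, with the MLX arm, MondoA targets and MYC neighbours in full. The members and lists were chosen with earlier results of these data known.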

Additional observations from a re-analysis of the deposited data

Results flagged for a closer look

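MYC in input was the single value singled out, because the effect of quizartinib differed between the media by a test of the difference itself. In RPMI it changed with quizartinib by -3.52 log2 units (mean 490 CPM with vehicle and 42.7 CPM with quizartinib), in hBMSC-CM by -0.33 (476 and 377 CPM), and the difference was 3.19 ± 0.43 log2 units (edgeR adjusted p = 1.26e-05). Over the alternatives the MYC difference ranged from 3.04 to 3.45, with adjusted p of 0.000194 or less. Single deviating cultures were not screened for, since each group had 3.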

How the results depend on the processing

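Of 336 refitted input values of members called in the main analysis, 321 were still called with the same sign, and 30 of 1152 input values not called became called. For polysome against input these counts were 394 of 416 and 40 of 312, and for polysome minus input 6 of 1584 became called. Among all 3800 refitted member values, 271 changed sign, of which 1 concerned a called value: MNT in hBMSC-CM with vehicle, polysome against input, at -0.071 when scaled by library size alone. Counts of members called stayed within 1.5 times the main count in 457 of 475 refits.

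Blocked by replicate number, the fits called members as follows: 5 against 3 for the combo against vehicle in hBMSC-CM, 2 against 1 for combo against everolimus and 2 against 0 for polysome minus input of the combo against vehicle in RPMI. With a block within each fraction these were 5, 3 and 2, everolimus against vehicle had 3 against 0, and the difference of quizartinib effects had 3 against 1 (MXD1 and MXD4 added). With a block per culture the polysome minus input of the combo in RPMI had 1 member, MYC, and with library size alone 1, MNT. The everolimus cultures share no pattern with same-numbered cultures, so for them the number is a label and no pairing. Combo against everolimus had 2 members with no filter and 3 in a fit of only the groups compared, and polysome against input in hBMSC-CM with vehicle had 3 against 5 in such a fit. Quizartinib against vehicle in hBMSC-CM had 1 to 2 members when single cultures were left out. The shares of all genes called in these refits are not given here, so these counts of members do not set the network apart. On the longest annotated transcript in place of all exons, the MYC share of input was 68.7% with everolimus and 46.4% with the combo in hBMSC-CM, against 67.6 and 43.4%. The causes were not tested.

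With 3 cultures a group, differences under about 1 log2 unit were often not detectable for members with wide spread. Scaling to library totals, with or without TMM factors, cannot show a change that all transcripts share. The authors reported lower RNA yields with quizartinib alone and with the combo, and a larger drop in heavy polysomes than in input. Rises and falls given here are therefore relative to the other transcripts of a library.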
